A study of Mus musculus with 7 samples.

Results

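Interferon-stimulated genes and nucleic acid sensors were followed as 41 genes, taken by name because they encode the sensors of foreign RNA and DNA, the parts that carry their signal, the type I interferon receptor, or proteins whose genes that receptor switches on. All 41 were found among the 37310 genes counted, and all 41 passed the filter on low counts, so that each was tested among 17175 genes. The lowest count of any of them in any library was 53 and the highest 9691. RNA-seq was done on whole mammary glands of C57BL/6 mice at lactation day 1, in 3 libraries labelled WT and 4 labelled *Tardbp* KO, to ask which genes of the lactating gland differ when TDP-43, an RNA-binding protein encoded by *Tardbp*, is lost. WT mice had intact *Tardbp* and carried the WAP-Cre transgene, and KO mice carried the same transgene together with 2 floxed *Tardbp* alleles, whose recombination removes exons 2 and 3, so that both groups expressed Cre. The WAP promoter, which belongs to a milk protein gene, drives Cre in luminal cells from the middle of pregnancy, whereas the RNA also came from the other cells of the gland. The labels number the libraries as replicates and do not name the animals or their age, so the p-values measure the spread between these libraries.

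Cells meet foreign or misplaced nucleic acid with sensors in the cytosol and in endosomes, whose adaptors and kinases switch on interferon genes. Secreted type I interferon binds the IFNAR1 and IFNAR2 receptor on the same and on neighbouring cells, and a complex that holds STAT2 and IRF9 then carries the signal to the promoters of interferon-stimulated genes. Their products degrade RNA, block translation, edit or trap nucleic acid, and feed back on the pathway. Many of these genes also have a basal level that does not need an infection.

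The DNA letters that this complex reads are shown for members on which the results turn or that are standard readouts of the pathway. The interferon-stimulated response element was searched as GAAA, 2 bases of any kind and GAAA on both strands of the promoters in RefSeq (GRCm38.p6), from 250 bases before to 50 bases after each gene's start, a table that held 32 of the 41 genes. The letters were found in 14 of these 32 promoters (43.8%) and in 1079 of 27025 promoters of all genes (3.99%). The gamma-activated site, searched as TTCNNNGAA on both strands, was found in 10 of the 32 promoters (31.2%) and in 9.55% of all promoters. Each of the following windows is written along the strand that carries the motif, with the motif in capitals and positions in that assembly.
*Isg15* (minus strand, chr4:156200871-156200900): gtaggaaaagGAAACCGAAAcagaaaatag
*Ifit1* (minus strand, chr19:34640794-34640823): tcagcagtgaGAAACTGAAActgagactgg
*Gbp2* (minus strand, chr3:142620594-142620623): ttaagacagtGAAAGTGAAActaaaagagt
*Rsad2* (plus strand, chr12:26456553-26456582): tctgttttctGAAAATGAAAgttggaccag
*Oas3* (minus strand, chr5:120777715-120777744): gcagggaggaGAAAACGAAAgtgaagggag
*Oas1a* (minus strand, chr5:120907526-120907555): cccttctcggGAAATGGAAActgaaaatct
*Oas1g* (minus strand, chr5:120887612-120887641): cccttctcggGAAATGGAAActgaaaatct

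The *Oas1a* and *Oas1g* windows held the same 30 bases, and these near-identical genes can share reads, so their separate counts are uncertain. The match in capitals began 72 bases before the annotated start in *Isg15*, 85 in *Ifit1*, 59 in *Gbp2*, 75 in *Oas3*, 120 in *Rsad2*, 20 in *Oas1a* and 18 in *Oas1g*. Further matches began 78 and 66 bases before the start in *Isg15*, 104 in *Ifit1*, 14 in *Oas1a* and 12 in *Oas1g*. Both guanylate-binding protein promoters, 3 of the 5 OAS promoters and 2 of the 3 IFIT promoters in the table held the motif, as did *Isg15*. Neither receptor promoter held it, nor did any of the 3 promoters of *Mavs*, *Tmem173*, *Tlr3* and *Tbk1* that the table held. A match to these letters is a description of the sequence and does not show that a factor bound there.

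Libraries held between 36007737 and 42811337 counts on genes. Levels are given as CPM, counts scaled to a common library size, after TMM scaling, which sets the bulk of genes level between libraries. Values of single libraries follow the order of their replicate numbers, 1 to 3 for WT and 1 to 4 for KO. The scaling matters here because caseins, *Wap* and *Lalba* took 26.27% to 33.97% of the counts of WT libraries and 12.74% to 21.75% of those of KO libraries. *Tardbp* lay between 159 and 222 CPM in WT libraries and between 154 and 213 CPM in KO libraries, and since counts are per gene and include exons outside the deletion, they do not check the labels, on which all genotypes below rest. Luminal secretory markers identified the gland as lactating epithelium in each library, with summed levels of 167902 to 235872 CPM in WT and 55764 to 126199 CPM in KO libraries and no marker at 0. B and T cell markers were higher in KO libraries for 16 of 16 genes, with summed levels of 31.2 to 49.5 CPM in WT libraries and of 425, 52.9, 566 and 125 CPM in KO replicates 1 to 4. Only lane 4 held both genotypes, with WT replicate 2 and KO replicates 3 and 4.

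No member was called different between the genotypes, and the members did not shift together in either direction. The limits for a call were those of the study's methods, namely 0.01 for the p adjusted by Benjamini-Hochberg and 1 for the size of the log2 fold change. By edgeR's quasi-likelihood test 0 of the 41 members passed, as did 0 of all 17175 genes (0%), and the members' adjusted p lay between 0.0853 and 0.987. At an unadjusted p under 0.05 there were 11 members (26.8%) beside 3672 genes of all tested (21.4%), of which 6 members were higher in KO libraries and 5 lower, each beside 10.7% of all genes. These shares lie near those of all genes. At these limits the exact test of edgeR called 0 members and 425 genes (2.47%), its likelihood ratio test 0 members and 462 genes (2.69%), and DESeq2's Wald test 1 member, *Mx1*, and 571 genes (3.32%). The exact test gave an adjusted p under 0.05 for 6 members beside 7.94% of all genes.

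The log2 fold change, KO over WT, was above 0 for 24 members and below 0 for 17, where 54.3% of all genes lay above 0. With scaling by library size only, 36 members lay above 0 and the median of all genes moved from 0.05 to 0.42, so directions are given relative to TMM scaling. That scaling gave 13 members an unadjusted p under 0.05 by the quasi-likelihood test, 12 higher and 1 lower, beside 33.7% of all genes. The median over the members was 0.08, between −1.26 for *Isg20* and 1.35 for *Oas3*, and 31 members lay within 0.5 of 0. All KO libraries lay above all WT libraries in 6 of the 41 members, beside 9.07% of all genes. They lay below all WT libraries in another 6 of the 41, beside 9.59% of all genes.

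**Figure D1:**
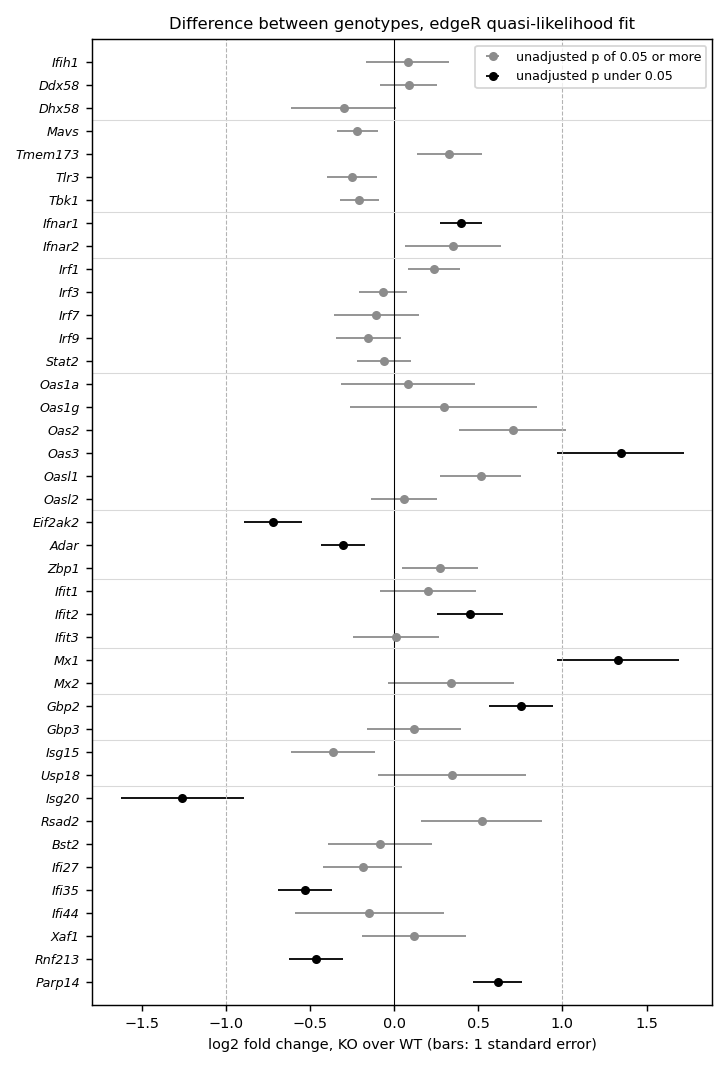
Log2 fold change of each of the 41 genes, KO over WT, with bars of 1 standard error from edgeR's quasi-likelihood fit, grouped by role from sensors at the top to other effectors at the bottom. Dashed lines mark the limits of 1 and −1, which *Oas3* and *Mx1* exceed above and *Isg20* below. The 11 genes with an unadjusted p under 0.05 are black.

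The cytosolic RNA sensors were present in each library and differed little between genotypes. *Ifih1*, which encodes the long double-stranded RNA sensor MDA5, had 42.2, 67.5 and 40.8 CPM in the WT and 35.3, 62.8, 58.8 and 55.3 CPM in the KO libraries. *Ddx58*, now also named *Rigi*, encodes RIG-I, a sensor of short RNA ends, and had 36.4, 56.1 and 40.2 CPM in the WT and 42.1, 46.2, 49.1 and 50.6 CPM in the KO libraries. *Dhx58* encodes LGP2, a relative of both that lacks the signalling domains, and had 9.77, 19.8 and 11.2 CPM in the WT and 6.68, 12.2, 11.8 and 13.4 CPM in the KO libraries. WT replicate 2 was the highest of the 7 libraries for all 3 genes, and the genotypes overlapped. Their log2 fold changes were 0.08 (standard error, SE, 0.245) for *Ifih1*, 0.09 (0.17) for *Ddx58* and −0.30 (0.311) for *Dhx58*, and the lowest unadjusted p among them was 0.36. *Dhx58* shares 4.08% of its exon bases with a gene on the opposite strand, where reads fitting both were left out.

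Of the adaptors, the kinase and the endosomal sensor, none had an unadjusted p under 0.05, although *Mavs* and *Tbk1* separated the genotypes by small amounts. *Mavs* encodes the mitochondrial adaptor of RIG-I and MDA5, and its levels of 49.8, 46.2 and 55.7 CPM in WT replicates 1 to 3 lay above the 41.2, 45.4, 42.5 and 44.7 CPM of KO replicates 1 to 4. *Tbk1*, the kinase that phosphorylates IRF3, had 45.1, 44.7 and 43.0 CPM in the WT and 38.1, 39.7, 35.3 and 40.5 CPM in the KO libraries. Both were thus lower in each KO library than in any WT library, at log2 fold changes of −0.22 (SE 0.123) and −0.21 (0.117). Their unadjusted p was 0.108 and 0.111 by the quasi-likelihood test. The 2-sided exact permutation p was 0.0286 for each, the smallest that 3 against 4 libraries allow. Groups that do not overlap give a low p in that test by themselves. It was also 0.0286 for *Ifnar1*, *Eif2ak2*, *Adar*, *Mx1*, *Gbp2*, *Rnf213* and *Parp14*. For *Oas3* and *Ifi35* that permutation p was 0.0571, for *Ifit2* 0.0857 and for *Isg20* 0.114. With scaling by library size only these fold changes were 0.15 and 0.16, above 0.

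*Tmem173*, now also named *Sting1*, encodes the adaptor STING of the DNA sensor cGAS and had 31.0, 26.1 and 32.3 CPM in the WT and 48.4, 28.2, 38.8 and 34.3 CPM in the KO libraries. *Tlr3*, an endosomal receptor for double-stranded RNA, had 41.0, 33.7 and 38.5 CPM in the WT and 34.9, 35.3, 26.7 and 30.2 CPM in the KO libraries. The genotypes overlapped in both genes, and their log2 fold changes were 0.33 (SE 0.193) and −0.25 (0.148).

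The receptor subunits were both higher on average in KO libraries, and *Ifnar1* separated the genotypes. *Ifnar1* (ENSMUSG00000022967, chr16:91485483-91507686 in NCBIM37) had 38.9, 43.0 and 41.0 CPM in the WT and 54.6, 52.9, 59.2 and 49.1 CPM in the KO libraries. Each KO library lay above each WT library, and the log2 fold change of 0.40 (SE 0.123) had an unadjusted p of 0.0107 and an adjusted p of 0.128 by the quasi-likelihood test of edgeR. *Ifnar2* had 40.5, 83.4 and 57.2 CPM in the WT and 48.1, 84.0, 84.1 and 91.4 CPM in the KO libraries, at a log2 fold change of 0.35 (SE 0.284). In *Ifnar2*, of whose exon bases 14.6% are shared with *Il10rb* on the same strand, KO replicate 1 lay among the WT libraries.

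The transcription factors of the pathway differed little between genotypes. *Irf1*, induced by interferons, averaged 44.0 ± 2.24 CPM over the WT (SD, n = 3) and 51.9 ± 8.43 CPM over the KO libraries (SD, n = 4). *Irf3* and *Irf7*, which switch on interferon genes, had log2 fold changes of −0.07 (SE 0.141) and −0.11 (0.252). *Irf9* and *Stat2*, the DNA-binding and a transactivating part of that complex, had −0.15 (0.191) and −0.06 (0.16). All 5 factors overlapped between genotypes, and the 4 below 0 with TMM scaling lay above 0 with library size only.

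The OAS genes encode synthases of an oligoadenylate that activates RNase L, together with the relatives *Oasl1* and *Oasl2*. All 6 had log2 fold changes above 0, from 0.06 for *Oasl2* to 1.35 for *Oas3*, and 1 of them had an unadjusted p under 0.05. *Oas3* (ENSMUSG00000032661, chr5:121203107-121227670) had 2.10, 1.96 and 1.92 CPM in the WT and 5.42, 2.43, 4.81 and 7.65 CPM in the KO libraries. The WT libraries were nearly level and each KO library lay above them, KO replicate 2 by the least. The mean was 1.99 ± 0.0918 CPM over the WT (SD, n = 3) and 5.08 ± 2.15 CPM over the KO libraries (SD, n = 4), a 2.54-fold difference with a log2 fold change of 1.35 (SE 0.377) and an adjusted p of 0.105 by the quasi-likelihood test of edgeR.

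*Oas2* had a log2 fold change of 0.70 (SE 0.319), with 15.4 ± 4.26 CPM over the WT (SD, n = 3) and 25.1 ± 10.6 CPM over the KO libraries (SD, n = 4). Its highest value, 40.6 CPM, came from KO replicate 4, which was also the highest of the 7 libraries for *Oas1a* (32.8 CPM), *Oas1g* (11.0 CPM), *Oas3* and *Oasl1* (8.21 CPM). Without KO replicate 4 the log2 fold changes of *Oas1a*, *Oas1g* and *Oasl2* were below 0, at −0.44, −0.33 and −0.03. The summed level of the 6 genes was 56.5 to 85.1 CPM in WT libraries and 58.6 to 128 CPM in KO libraries.

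The RNA-responsive kinase and the RNA editor were lower in KO libraries and separated the genotypes. *Eif2ak2* (ENSMUSG00000024079, chr17:79251904-79281913) encodes PKR, which blocks translation when it binds double-stranded RNA, and had 64.3, 55.5 and 62.5 CPM in the WT and 26.7, 41.3, 37.6 and 42.0 CPM in the KO libraries. The highest KO library lay below the lowest WT library. The log2 fold change of −0.72 (SE 0.174) had an unadjusted p of 0.00261 and an adjusted p of 0.0861 by edgeR's quasi-likelihood test. *Adar* (ENSMUSG00000027951, chr3:89518944-89557368) encodes ADAR1, which edits adenosine to inosine in double-stranded RNA, and had 104, 104 and 87.9 CPM in the WT and 72.1, 79.0, 82.2 and 86.0 CPM in the KO libraries.

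KO replicate 4 and WT replicate 3 were close neighbours in *Adar*, whose log2 fold change was −0.30 (SE 0.132, unadjusted p = 0.0466 by the quasi-likelihood test of edgeR) with TMM scaling and 0.07 with library size only. *Zbp1*, a sensor of Z-form nucleic acid, had 12.7, 18.7 and 10.4 CPM in the WT and 15.4, 15.8, 15.8 and 20.3 CPM in the KO libraries, which overlapped. *Eif2ak2* shares 4.32% of its exon bases with genes on the opposite strand.

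**Figure D2:**
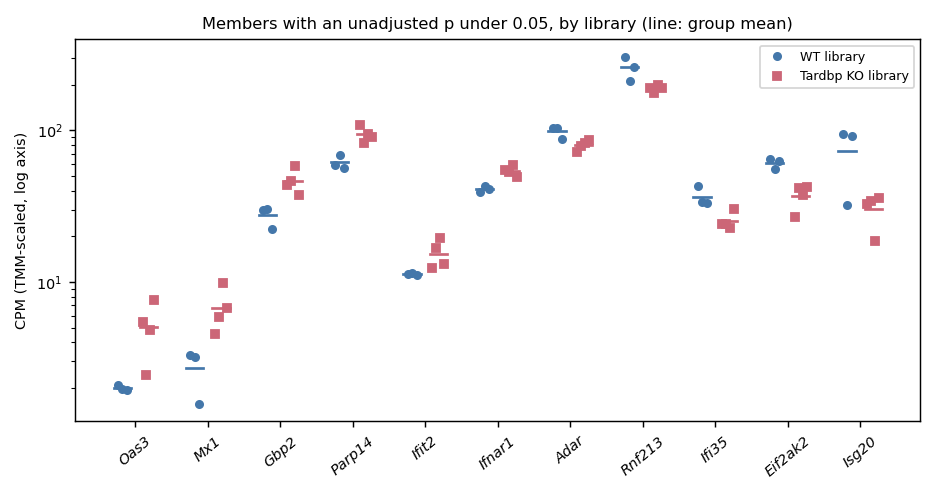
TMM-scaled CPM in each library, on a log axis, of the 11 genes with an unadjusted p under 0.05, with WT libraries as circles, KO libraries as squares and lines at the group means. *Oas3*, *Mx1*, *Gbp2*, *Parp14*, *Ifit2* and *Ifnar1* lie higher in KO libraries and the other 5 lower, and for *Isg20* the WT replicate at 32.1 CPM lies among the KO libraries. With library size only, *Adar* lies at 0.07 on the log2 scale.

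Among the IFIT proteins, which bind viral RNA and hinder its translation, *Ifit2* separated the genotypes. *Ifit2* (ENSMUSG00000045932, chr19:34625184-34650909) had 11.2, 11.5 and 11.1 CPM in the WT and 12.4, 16.6, 19.4 and 13.1 CPM in the KO libraries. Its log2 fold change was 0.45 (SE 0.195, unadjusted p = 0.0464 by the quasi-likelihood test of edgeR), with KO replicate 1 close to the WT libraries. *Ifit1* and *Ifit3* overlapped, at log2 fold changes of 0.20 (SE 0.286) and 0.01 (0.255), and the value of *Ifit3*, which can share reads with its near-identical neighbour *Ifit3b*, was −0.0048 with DESeq2's size factors.

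The MX GTPases and the guanylate-binding proteins, which act on viral particles and on membranes of intracellular pathogens, each had 1 member apart between genotypes. *Mx1* (ENSMUSG00000000386, chr16:97668642-97684514), which most inbred laboratory strains carry in a defective form, had 3.30, 3.20 and 1.57 CPM in the WT and 4.52, 5.89, 9.85 and 6.75 CPM in the KO libraries. Each KO library lay above each WT library, at means of 2.69 ± 0.972 CPM (SD, n = 3) and 6.75 ± 2.26 CPM (SD, n = 4). The log2 fold change of 1.33 (SE 0.364) had an adjusted p of 0.0999 by the quasi-likelihood test of edgeR and of 0.00762 in DESeq2's Wald test, so that the call depended on the test. *Mx2* overlapped, at 0.34 (SE 0.375).

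*Gbp2* (ENSMUSG00000028270, chr3:142283566-142300972) had 29.99, 30.2 and 22.2 CPM in the WT and 43.4, 46.5, 58.0 and 37.2 CPM in the KO libraries. The lowest KO library stood above the highest WT library, and the log2 fold change was 0.75 (SE 0.189, adjusted p = 0.0897 by the quasi-likelihood test of edgeR). *Gbp3* overlapped, with 47.3 ± 17.4 CPM over the WT (SD, n = 3) and 51.5 ± 12.95 CPM over the KO libraries (SD, n = 4).

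Of the ISG15 system, *Isg15* encodes a ubiquitin-like protein that is joined to other proteins, and *Usp18* the protease that removes it and dampens the receptor. *Isg15* had 12.3, 13.3 and 10.4 CPM in the WT and 6.16, 9.03, 9.34 and 12.8 CPM in the KO libraries, at a log2 fold change of −0.36 (SE 0.249). *Usp18* had 6.74, 14.3 and 9.14 CPM in the WT and 7.21, 7.95, 12.4 and 23.7 CPM in the KO libraries, at 0.35 (SE 0.438). KO replicate 4 was the highest KO library in both genes, and the genotypes overlapped.

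Of the 9 other effectors, *Parp14* was higher in KO libraries and *Isg20*, *Ifi35* and *Rnf213* were lower at an unadjusted p under 0.05. *Parp14* (ENSMUSG00000034422, chr16:35832960-35871630), a mono-ADP-ribosyltransferase, had 58.9, 68.5 and 56.5 CPM in the WT and 109, 81.9, 94.6 and 90.4 CPM in the KO libraries. No KO library fell below the highest WT library. Its log2 fold change of 0.61 (SE 0.147) had an adjusted p of 0.0853 by the quasi-likelihood test of edgeR, the lowest among the 41 genes.

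*Isg20* (ENSMUSG00000039236, chr7:86058310-86065248), an exonuclease that degrades single-stranded RNA, had 94.6, 32.1 and 91.6 CPM in the WT and 32.8, 34.4, 18.6 and 35.9 CPM in the KO libraries. WT replicates 1 and 3 stood far above the KO libraries and WT replicate 2 among them. The log2 fold change was −1.26 (SE 0.367, adjusted p = 0.114 by the quasi-likelihood test of edgeR) over all libraries and −0.24 within lane 4, where WT replicate 2 is the only WT library.

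*Ifi35* (ENSMUSG00000010358, chr11:101309721-101320012) had 42.8, 33.5 and 33.0 CPM in the WT and 24.0, 24.2, 22.7 and 30.1 CPM in the KO libraries. Its genotypes did not overlap, at a log2 fold change of −0.53 (SE 0.158, adjusted p = 0.12 by the quasi-likelihood test of edgeR). With library size only the log2 fold change of *Ifi35* was −0.16. Of its exon bases 16.8% are shared with a gene on the opposite strand, over which reads were not counted.

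*Rnf213* (ENSMUSG00000070327, chr11:119254414-119348732), a very large ubiquitin ligase, had 305, 211 and 262 CPM in the WT and 189, 176, 198 and 191 CPM in the KO libraries. Each KO library lay below each WT library, KO replicate 3 and WT replicate 2 being the closest. The log2 fold change was −0.46 (SE 0.161, adjusted p = 0.152 by the quasi-likelihood test of edgeR). It was −0.12 within lane 4 and −0.08 with library size only. The other 5 effectors, *Rsad2*, *Bst2*, *Ifi27* (ENSMUSG00000064215), *Ifi44* and *Xaf1*, overlapped between genotypes. *Rsad2*, which encodes the antiviral enzyme viperin, had 17.9 ± 3.55 CPM over the WT (SD, n = 3) and 25.6 ± 12.6 CPM over the KO libraries (SD, n = 4), with its highest value of 42.7 CPM in KO replicate 3. *Bst2*, the virus tether tetherin, ranged from 83.6 to 209 CPM among KO libraries and from 124 to 138 CPM among WT libraries.

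Per kilobase of exon, *Bst2* and *Ifi27* had the highest levels of the 41 genes in both genotypes, at 171 ± 8.80 and 148 ± 26.0 CPM per kb (SD, n = 3) in WT libraries. *Isg20* came next in WT libraries, at 39.8 ± 19.3 CPM per kb, and sixth in KO libraries, at 16.7 ± 4.37 CPM per kb. The lowest levels were those of *Mx1* and *Oas3*, at 0.738 ± 0.267 and 0.381 ± 0.0176 CPM per kb in WT libraries. The genes with the largest fold changes upward were thus the 2 with the lowest levels in WT libraries, with at least 50 counts in each library.

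Medians over these genes spread more widely among KO libraries than the genotypes differed. Relative to the WT mean, the median over the members of log2(CPM + 1) was −0.07, 0.23 and −0.09 in WT replicates 1 to 3 and −0.37, −0.0038, 0.21 and 0.24 in KO replicates 1 to 4. KO replicate 1 was the lowest of the 7 libraries in 20 members (48.8%, beside 16.2% of all genes). KO replicate 4 was the highest KO library in 26 members (63.4%, beside 29.2% of all genes). WT replicate 2 was the highest WT library in 28 members (68.3%, beside 38.8% of all genes).

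**Figure D3:**
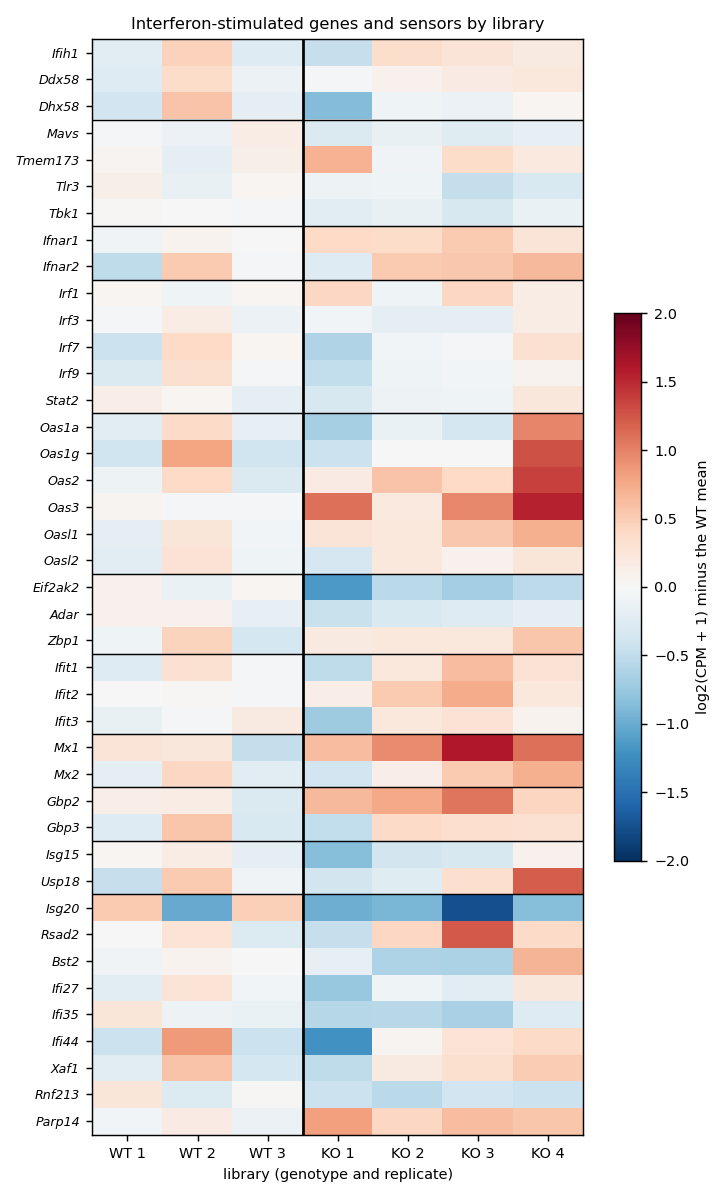
Level of each of the 41 genes in each library, as log2(CPM + 1) minus the mean of the WT libraries, with red above and blue below that mean and roles separated by lines. Many genes share the red of WT replicate 2 and KO replicate 4 and the blue of KO replicate 1, which was the lowest library in 20 genes, whereas the row of *Eif2ak2* is blue and the row of *Parp14* red in each KO library.

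The B and T cell markers ordered the KO libraries differently, and KO replicate 2 lay at the level of the WT libraries. Their median relative to the WT mean was 2.73, 0.14, 3.14 and 1.04 in KO replicates 1 to 4, and that of 8 myeloid markers 0.55, 1.17, 0.72 and −0.34. KO replicates 1 and 3, the libraries with the highest lymphocyte markers, thus held the lowest and the second highest KO median over the members. In RNA from many cell types, fewer cells of a type and less RNA per cell cannot be told apart.

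With the mean level of the B and T cell markers as a covariate, 1 member had an unadjusted p under 0.05, *Oas2* at a log2 fold change of 1.12, beside 8.75% of all genes. None of the 11 members named above had such a p in that fit, where their log2 fold changes had the same sign as before, between −0.92 for *Isg20* and 1.06 for *Mx1*. The covariate was 1.19 to 1.51 in WT libraries and 4.36, 1.58, 4.74 and 2.69 in KO replicates 1 to 4. Each KO value lay above each WT value, so genotype and lymphocyte markers cannot be told apart by this fit. Without KO replicates 1 and 3, 7 members had an unadjusted p under 0.05, beside 12.5% of all genes. Within lane 4, where no test was made, the 11 log2 fold changes also had the sign found over all libraries. The part of lymphocyte RNA in the values of single members was not tested.

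**Figure D4:**
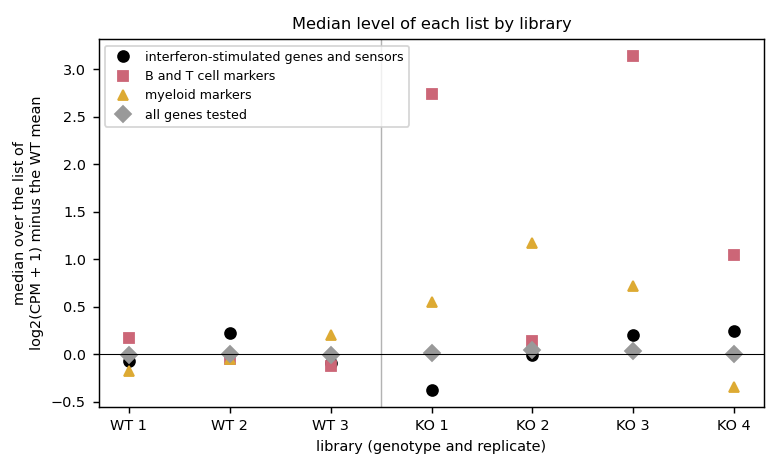
Median over each list of log2(CPM + 1) minus the mean of the WT libraries, by library, for the 41 interferon-stimulated genes and sensors (circles), 16 B and T cell markers (squares), 8 myeloid markers (triangles) and all genes tested (diamonds). The lymphocyte markers reach 2.73 and 3.14 in KO replicates 1 and 3, where the circles lie at −0.37 and 0.21.

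The genes that make interferon were hardly detected. Of 21 interferon genes listed, 14 had 0 counts in each library, where a count of 0 allows up to 3 counts, or 0.0612 to 0.112 CPM depending on the library, by counting error only. *Ifne*, an epithelial interferon, and *Ifng*, the interferon of lymphocytes, were the 2 that passed the filter. *Ifng* lay between 0.118 and 0.237 CPM in WT and between 0.053 and 0.224 CPM in KO libraries, and *Ifne* between 0.487 and 2.07 CPM and between 0.795 and 2.38 CPM. Their log2 fold changes were −0.05 (SE 0.603) and 0.04 (0.581).

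Outside the 41 genes, 14 genes of the JAK-STAT route were listed, namely receptors, kinases, transcription factors and SOCS feedback inhibitors. They were higher on average in KO libraries for 13 of the 14, and for all 14 with library size only. Of these, 9 had an unadjusted p under 0.05 upward and 0 downward, beside 10.7% of all genes each way, and the list's median log2 fold change was 0.62. With the lymphocyte markers as a covariate 3 genes had such a p, beside 8.75% of all genes, and the median was 0.40. With the myeloid markers it was 4 genes, beside 8.95% of all genes, and 0.54. *Irf8*, a factor of B and myeloid cells, had 12.2, 12.02 and 11.7 CPM in the WT and 46.7, 22.3, 54.3 and 17.4 CPM in the KO libraries. *Irf8* was highest in KO replicates 1 and 3, which also held the most lymphocyte marker RNA. KO replicate 2, whose summed lymphocyte markers were 52.9 CPM, lay above KO replicate 4, where they were 125 CPM. In these 2 libraries the myeloid markers had medians of 1.17 and −0.34 relative to the WT mean, and sums of 2303 and 2494 CPM. The log2 fold change of *Irf8* was 1.55 (SE 0.386), and 0.51 with the lymphocyte markers as a covariate. The source of its RNA was not tested.

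*Stat3*, which signals for cytokines such as LIF in the gland, had 247, 429 and 316 CPM in the WT and 512, 523, 575 and 567 CPM in the KO libraries. Its log2 fold change was 0.72 (SE 0.21) and 0.72 with the lymphocyte markers as a covariate. *Ifnlr1*, a subunit of the lambda interferon receptor of epithelia, had 10.9, 36.4 and 19.6 CPM in the WT and 46.5, 51.5, 44.6 and 53.2 CPM in the KO libraries, a log2 fold change of 1.13 (SE 0.342). *Irf2*, a relative of *Irf1*, had 0.58 (SE 0.155). All KO libraries lay above all WT libraries in these genes, with adjusted p from 0.0880 to 0.123 by the quasi-likelihood test of edgeR.

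Of 28 other genes of nucleic acid sensing, 27 were tested, 16 of them above and 11 below 0, with 6 and 2 at an unadjusted p under 0.05 (10.7% of all genes each way) and a median log2 fold change of 0.08. The number at that p was 2 with the lymphocyte and 1 with the myeloid covariate, beside 8.75% and 8.95% of all genes. *Tlr9*, an endosomal DNA receptor of B cells and plasmacytoid dendritic cells, had 2.13, 1.37 and 2.43 CPM in the WT and 7.48, 4.24, 10.7 and 2.87 CPM in the KO libraries, a log2 fold change of 1.68 (SE 0.472). *Tlr9* was highest in KO replicates 1 and 3, as were the lymphocyte markers. For *Tlr9*, KO replicate 2 lay above KO replicate 4, where the summed lymphocyte markers were 52.9 and 125 CPM, respectively. The myeloid markers had medians of 1.17 and −0.34 there, and sums of 2303 and 2494 CPM. With the lymphocyte markers as a covariate the log2 fold change of *Tlr9* was 0.65, and the source of its RNA was not tested. *Ticam1*, the adaptor TRIF of TLR3, was lower in each KO library, at −0.64 (SE 0.213). *Traf6*, a ubiquitin ligase downstream of several receptors, had 0.66 (SE 0.213), and *Ifi203*, of the DNA-binding PYHIN family, 0.82 (0.273). *Cgas* overlapped, with 1.90 to 4.61 CPM in WT and 1.83 to 3.25 CPM in KO libraries.

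Of 46 other interferon-stimulated genes listed, 44 were tested, 34 of them above and 10 below 0, with 10 and 4 at an unadjusted p under 0.05 (10.7% of all genes each way) and a median log2 fold change of 0.25, where 54.3% of all genes lay above 0. The number at that p was 3 with the lymphocyte and 4 with the myeloid covariate, beside 8.75% and 8.95% of all genes. *Parp9* and *Dtx3l* encode partners in a complex and are related in function to *Parp14*. *Dtx3l* had 46.9, 66.2 and 50.2 CPM in the WT and 75.0, 80.6, 88.3 and 89.4 CPM in the KO libraries, at a log2 fold change of 0.61 (SE 0.158). *Parp9* had 52.6, 96.3 and 47.8 CPM in the WT and 94.2, 114, 133 and 157 CPM in the KO libraries, at 0.93 (SE 0.278), with WT replicate 2 above KO replicate 1.

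*Cmpk2*, a mitochondrial nucleotide kinase next to *Rsad2* in the genome, had 163, 137 and 139 CPM in the WT and 65.1, 91.4, 88.6 and 107 CPM in the KO libraries. It was lower in each KO library, at −0.73 (SE 0.181), while the value of *Rsad2* was 0.52. *Epsti1* had 2.09 (SE 0.557), and 0.34 with the lymphocyte markers as a covariate.

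**Figure D5:**
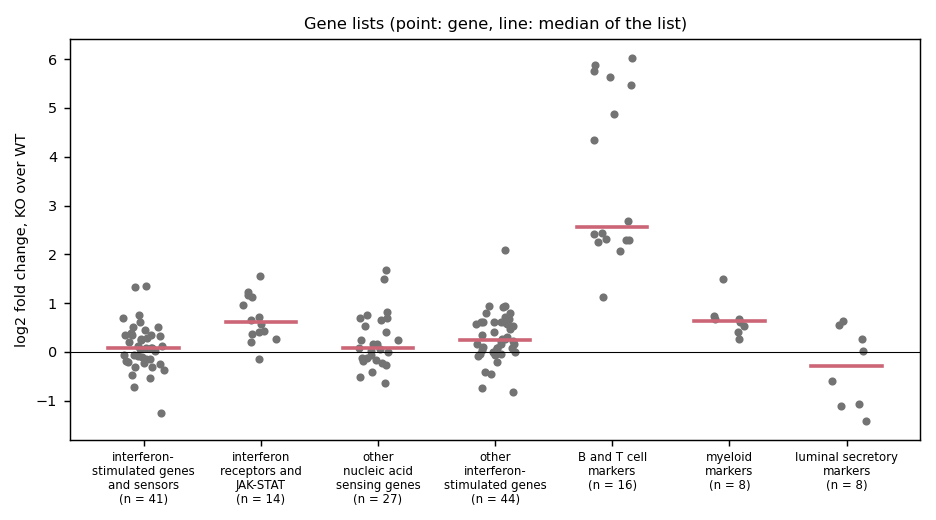
Log2 fold change, KO over WT with TMM scaling, of each tested gene of the lists named, with a line at each list's median. The 41 interferon-stimulated genes and sensors centre on 0.08 and the 14 JAK-STAT genes on 0.62, while B and T cell markers centre on 2.56, myeloid markers on 0.64 and luminal secretory markers on −0.29, the last of which is 0.08 with library size only.

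Members with the response element's letters in the promoter lay above 0 for 10 of 14 genes and those without them for 7 of 18, where 54.3% of all genes lay above 0. The 14 members with the motif had a median log2 fold change of 0.08, with 2 higher and 1 lower at an unadjusted p under 0.05. The 18 members without it had a median of −0.13, with 2 higher and 4 lower. The 9 members that were not in the promoter table had a median of 0.34, with 7 above 0 and 2 higher at that p. *Oas3* and *Gbp2* carry the motif and were higher in KO libraries, and *Eif2ak2* carries it and was lower.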

How the data were processed

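RNA-seq of mammary gland at lactation day 1 was analysed for 7 libraries. The authors extracted RNA with Trizol, prepared libraries with an Illumina TruSeq kit, and mapped paired-end reads to NCBIM37 with STAR (2.4.2a in the study's methods, 2.5.2a and mm9 in the submitters' processing notes). Reads were assigned to the exons of 37310 genes by featureCounts 1.4.6-p5. The deposited values are raw counts per gene. The command line sets no option for strand, pairs or multimapping, so mates count separately and reads with several positions or several genes were not used. It names 8 libraries, of which 7 have a column.

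Genes were identified with GENCODE vM1, whose starts matched all 37310, and 203 of 204 listed genes were matched. After removal of 37 mitochondrial and 575 ribosomal genes, those reaching 5 counts in 4 or more of the 7 libraries were tested with edgeR 4.0.16 (R 4.3.3), TMM and the quasi-likelihood test with Benjamini-Hochberg adjustment over all 17175 genes. The fit had a common dispersion of 0.0921 and 3.91 prior degrees of freedom. Standard errors are the log2 fold change divided by the root of F. For single genes log2(CPM + 1) was also compared over all 35 splits (exact permutation test, 2-sided). Named were members with an unadjusted p under 0.05 or with separate groups, sensors, adaptors and receptors, and of each pathway list the 4 genes of lowest p, with *Cgas*. The values of 1 other gene of that rule are not reported here. The 41 genes and all lists were chosen with earlier results of these data known. Alternatives were DESeq2 1.42.0 (size factors and Wald test), upper quartile, library size only, other filters, edgeR's exact and likelihood ratio tests, other limits, a replicate block, each library left out, lane 4 only, lymphocyte or myeloid markers as a covariate and, chosen after seeing the data, KO replicates 1 and 3 left out. Promoter sequences were from RefSeq (GRCm38.p6). The SD holds counting error, preparation and any difference between animals.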

Additional observations from a re-analysis of the deposited data

Results flagged for a closer look

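In 3 members 1 KO library stood far from the other KO libraries, by a gap that took more of the range of the 4 libraries than Dixon's 95% limit allows. Chance flags about 1 in 20 such groups. *Oas1g* had 11.0 CPM in KO replicate 4, above the other KO libraries by 0.847 of the range. *Zbp1* had 20.3 CPM in KO replicate 4, above the others by 0.922 of the range. *Gbp3* had 32.2 CPM in KO replicate 1, below the others by 0.874 of the range. None of these genes had an unadjusted p under 0.05.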

How the results depend on the processing

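No gene was called by the quasi-likelihood test with any other scaling, without any 1 replicate or with a covariate. The number of genes called was 1 without the filter on low counts, 1 at an adjusted p under 0.05 with no limit on the fold change, 425 with edgeR's exact test, 462 with its likelihood ratio test and 571 with DESeq2's Wald test, which called 1 member. Members with an unadjusted p under 0.05 numbered 7 without KO replicates 1 and 3, 1 with the lymphocyte covariate, 6 with the myeloid covariate, and 8 to 13 with 1 replicate left out, beside 12.5%, 8.75%, 8.95% and 12.3% to 25.4% of all genes. With library size only they numbered 13, beside 33.7% of all genes. The members' median was 0.44 with library size only, −0.06 in lane 4, and −0.04 to 0.29 with 1 replicate left out, where it was highest without WT replicate 2 and below 0 without WT replicate 1, WT replicate 3 or KO replicate 4. Log2 fold changes that crossed 0 were, with library size only, *Dhx58* 0.049, *Mavs* 0.15, *Tlr3* 0.13, *Tbk1* 0.16, *Irf3* 0.29, *Irf7* 0.24, *Irf9* 0.20, *Stat2* 0.31, *Adar* 0.069, *Bst2* 0.24, *Ifi27* 0.16 and *Ifi44* 0.20, relative to a shift of all genes to 0.42. With the lymphocyte covariate they were *Tmem173* −0.087, *Irf1* −0.10, *Irf7* 0.16, *Irf9* 0.00017, *Stat2* 0.054, *Bst2* 0.14, *Ifi27* 0.14 and *Ifi44* 0.12. With the myeloid covariate they were *Ifih1* −0.067, *Irf3* 0.089, *Stat2* 0.12, *Ifit3* −0.17 and *Bst2* 0.40. Without KO replicates 1 and 3 they were *Irf7* 0.10, *Stat2* 0.069, *Bst2* 0.17, *Ifi27* 0.061 and *Ifi44* 0.10. With DESeq2's size factors and with its Wald test only *Ifit3* −0.0048 crossed 0. In lane 4, without a test, they were *Ifih1* −0.24, *Ddx58* −0.17, *Stat2* 0.035, *Oas1g* −0.028, *Oasl2* −0.13, *Zbp1* −0.055, *Gbp3* −0.24, *Bst2* 0.086 and *Xaf1* −0.16. With 1 replicate left out the ranges that held 0 were *Ifih1* −0.048 to 0.36, *Ddx58* −0.036 to 0.29, *Dhx58* −0.49 to 0.076, *Irf3* −0.16 to 0.012, *Irf7* −0.30 to 0.12, *Irf9* −0.29 to 0.027, *Stat2* −0.19 to 0.017, *Oas1a* −0.44 to 0.31, *Oas1g* −0.33 to 0.96, *Oasl2* −0.045 to 0.23, *Ifit3* −0.10 to 0.20, *Gbp3* −0.033 to 0.47, *Usp18* −0.15 to 0.69, *Bst2* −0.48 to 0.063, *Ifi44* −0.37 to 0.44 and *Xaf1* −0.059 to 0.49. The labels do not say whether the replicate numbers pair the libraries. Deviations from the group means correlated at 0.351, 0.0941 and −0.0582 for the pairs numbered 1 to 3. For WT and KO libraries of unlike numbers they correlated at −0.388 to 0.254, so pairing stayed unsettled. With the replicate block 12 members had an unadjusted p under 0.05, the median was −0.07, no member was called, and the values that crossed 0 were *Oas1a* −0.41, *Oas1g* −0.17, *Oasl2* −0.010, *Ifit3* −0.073, *Usp18* −0.10 and *Xaf1* −0.0042. The cause of these changes was not tested. Members at 2 to 5 CPM in WT libraries, *Oas3*, *Oas1g*, *Mx1*, *Mx2* and *Oasl1*, rest on the fewest counts, from 53 upward.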

Other observations

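Markers of other cell types in the gland were summed to describe the libraries in which the interferon-stimulated genes were read. Plasmacytoid dendritic cells are known as strong producers of type I interferon, and 3 of 4 of their markers were tested. *Siglech* had 0.337, 0.653 and 0.592 CPM in the WT and 4.60, 1.10, 6.93 and 1.11 CPM in the KO libraries, and *Klk1* was at 0 in each WT library. The summed level of the 3 tested markers was 0.487 to 1.12 CPM in WT and 1.47 to 9.89 CPM in KO libraries. Myeloid markers summed to 427 to 1567 CPM in WT and 1147 to 2734 CPM in KO libraries, with 8 of 8 above 0 in log2 fold change and 1 at an unadjusted p under 0.05. Fibroblast markers summed to 703 to 2048 CPM in WT and 506 to 2298 CPM in KO libraries, and were lowest in WT replicate 2 and KO replicate 4 within each genotype, the libraries that were the highest of their genotype in 28 and 26 of the 41 interferon-stimulated genes and sensors. Endothelial markers were lowest in the same libraries, at 229 CPM in WT replicate 2 and 177 CPM in KO replicate 4. Myoepithelial markers summed to 783 to 1277 CPM in WT and 679 to 1990 CPM in KO libraries, and adipocyte markers to 2371 to 3339 CPM and 2404 to 4697 CPM. Their part in the members' values was not tested.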
